A study of Homo sapiens with 12 samples.

Results

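Imprinted genes are expressed from 1 parental copy, and many of them set how much a fetus or a cell population grows. The genes described here were H19, IGF2, INS-IGF2, CDKN1C, DLK1, MEG3, NNAT, PEG10, PLAGL1 and PEG3. They were chosen by name, because H19 and IGF2 had changed in opposite directions in an earlier look at these arrays, and are 10 of 30505 genes named on the array. They had 19 of its 47227 probes. Of the 10 genes, 9 passed the filter on low values, for which both arrays of some group had to detect a probe at a detection p under 0.01. PEG3 did not pass.

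Total RNA of H9, an established human embryonic stem cell line, was measured on 12 Illumina bead arrays in 6 groups of 2 biological duplicates. The groups were LHX2 cells given doxycycline (dox-plus) and not given it (dox-minus) at day 4, the same pair at day 16, and, 12 days into neural induction, cells with a short hairpin against LHX2 (shLHX2) and control shLuc cells. The transcription factor LHX2, known from the forebrain and the eye field, was under a doxycycline switch in both dox groups. Doxycycline was given for 3 days and the cells were collected 1 day later (day 4) or 13 days later (day 16). The series text names GFP as the control of the overexpression, whereas the labels of the control arrays name LHX2 cells without doxycycline, so the effect of LHX2 and that of doxycycline itself cannot be told apart. All arrays come from 1 cell line, and the number of clones is not stated in the sources used here. In such bulk RNA, fewer cells of a type and less RNA per cell cannot be told apart. Array medians ran from 73.1 to 89.2 signal units, and between 19050 and 20489 probes were detected per array. LHX2 itself was lower in shLHX2 cells, with signals of 186.4 and 293.5, against 1030.2 and 898.6 in shLuc cells (log2 fold change −2.03 ± 0.27 SE, limma adjusted p = 0.00592). At day 4, 1 day after doxycycline, LHX2 had signals of 128.4 and 97.7 in dox-plus cells, against 84.5 and 70.7 in dox-minus cells, with 1 of the 4 arrays detecting it and a difference that did not pass (log2 difference 0.70 ± 0.27 SE, adjusted p = 0.272). At day 16 LHX2 had signals of 6702.5 and 7311.1 in dox-plus cells, against 4518.4 and 3645.9 in dox-minus cells, a difference that did not pass (adjusted p = 0.0581). Whether its 1 probe also reads the transgene was not tested.

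In textbook accounts H19, a maternally expressed long non-coding RNA, and IGF2, a paternally expressed growth factor, are neighbours that share enhancers, and CTCF bound to the unmethylated maternal control region blocks IGF2 from them. DLK1, a paternally expressed Notch-like membrane protein, and MEG3, a maternally expressed non-coding RNA, form a similar pair. These arrays measure RNA levels only. They read neither methylation nor the parental copy, so nothing here shows whether imprinting was kept.

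Signals are given as deposited, and differences as log2 of the background-corrected, quantile-normalized signal with their standard errors. A call means a limma p below 0.05 after Benjamini-Hochberg adjustment over 15650 genes. A fold written as "at least" sets the detected group against the lowest detected signal on the other group's arrays. Such a fold is a bound on the background-corrected, normalized scale only, and the ratio of the uncorrected signals can be smaller. The series value table, used for comparison, holds the submitters' values of the same arrays and was taken without further normalization. The day 16 difference between dox-plus and dox-minus cells led to the choice of these genes and is given for all of them without a test. The same holds for NNAT at day 4 and for H19, IGF2 and INS-IGF2 between the days.

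The bases around the starts of H19, INS-IGF2 and MEG3, and the mature products of the microRNA hairpin inside H19, are printed below. These genes were taken because probes named for them differed between dox-plus and dox-minus cells at day 16 and RefSeq's table holds their starts. PLAGL1 also met both conditions, but the bases around its starts are not printed. For INS-IGF2 the probe at base 5084 differed, while the one at base 599 was never detected. Whether the former also binds IGF2 transcripts was not tested. The printed bases are RefSeq sequences of build GRCh38.p14, which held a start window for 4 of the 10 genes, with PLAGL1 the other one. Capitals mark CpG pairs in the windows, and the seed, bases 2 to 8, in the microRNAs. The INS-IGF2 stretch, upstream of a start shared with INS, is given without the bases after the start.
H19, chr11:2001217-2001516, minus strand: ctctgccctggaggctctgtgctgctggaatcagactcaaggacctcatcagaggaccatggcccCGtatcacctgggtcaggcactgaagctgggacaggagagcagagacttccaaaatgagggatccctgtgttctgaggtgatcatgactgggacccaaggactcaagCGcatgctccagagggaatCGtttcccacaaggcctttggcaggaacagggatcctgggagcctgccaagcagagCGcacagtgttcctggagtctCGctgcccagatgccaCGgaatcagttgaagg
INS-IGF2, chr11:2161210-2161459, minus strand: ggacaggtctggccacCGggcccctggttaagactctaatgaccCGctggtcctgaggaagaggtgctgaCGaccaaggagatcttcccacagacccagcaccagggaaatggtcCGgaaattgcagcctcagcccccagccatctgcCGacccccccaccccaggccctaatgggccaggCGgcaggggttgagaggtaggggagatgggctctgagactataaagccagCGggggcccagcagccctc
MEG3, chr14:100825858-100826157, plus strand: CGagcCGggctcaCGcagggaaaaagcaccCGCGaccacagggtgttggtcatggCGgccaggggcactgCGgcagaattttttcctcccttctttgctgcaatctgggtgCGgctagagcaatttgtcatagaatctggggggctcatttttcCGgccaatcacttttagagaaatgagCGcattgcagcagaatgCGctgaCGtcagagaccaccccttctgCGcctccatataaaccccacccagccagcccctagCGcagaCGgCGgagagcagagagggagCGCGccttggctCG
hsa-miR-675-5p, chr11:1996800-1996822, minus strand: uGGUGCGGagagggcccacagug
hsa-miR-675-3p, chr11:1996768-1996787, minus strand: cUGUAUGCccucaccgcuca
The H19 window holds 6 CpG pairs, the full INS-IGF2 window of 300 bases holds 7 and the printed MEG3 window 19, beside a median of 14 over 27305 genes. MEG3 windows at other starts, not printed, hold 17 and 18. The letters TATAAA, searched on both strands, occur in the INS-IGF2 and MEG3 windows and not in the H19 window, and 12.0% of genes have them.

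H19 differed in direction from one comparison to the next. It was lower in dox-plus cells at day 4, far higher in them at day 16, and higher in shLHX2 cells. At day 4 its signals were 52.1 and 52.9 in dox-plus cells, against 161.0 and 132.6 in dox-minus cells. Neither dox-plus array detected it, and both dox-minus arrays did. The log2 difference was −2.35 ± 0.26 SE, at least 2.2-fold lower in dox-plus cells (limma adjusted p = 0.000998). H19 was the 1 member called of 8 tested at day 4, where 1.93% of all genes were called (1.34% higher and 0.594% lower).

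At day 16 H19 had signals of 2076.7 and 2478.6 in dox-plus cells, against 70.0 and 63.8 in dox-minus cells. The log2 difference was 6.58 ± 0.26 SE, at least 50.9-fold on the corrected scale. It was 5.24 without background correction and 5.085 in the series value table. In the shLHX2 arrays the signals were 1505.7 and 2828.9, against 610.2 and 622.3 in shLuc arrays. All 4 arrays detected it, and the groups did not overlap. The log2 difference of 2.07 ± 0.26 SE, 4.19-fold higher in shLHX2 cells, passed the test (limma adjusted p = 0.00542). The call was lost without shLuc replicate 1 (adjusted p = 0.106) and without shLuc replicate 2 (adjusted p = 0.0685). H19 and DLK1 were the 2 members called of 9 tested in this comparison, where 0.543% of all genes were called (0.249% higher and 0.294% lower).

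Over the 6 groups H19 was highest in dox-plus day 16 and shLHX2 cells, whose ranges overlapped, then in shLuc cells and in dox-minus day 4 cells. It was not detected in dox-minus day 16 or dox-plus day 4 cells. Between the days it ran opposite ways. The log2 difference, day 16 minus day 4, was 6.80 ± 0.26 SE in dox-plus cells (at least 48.2-fold higher at day 16) and −2.13 ± 0.26 SE in dox-minus cells (at least 2.33-fold lower at day 16). Without background correction it was 5.605 in dox-plus cells and −1.30 in dox-minus cells. The array carries 1 probe for H19, so no other probe checks it.

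**Figure D1:**
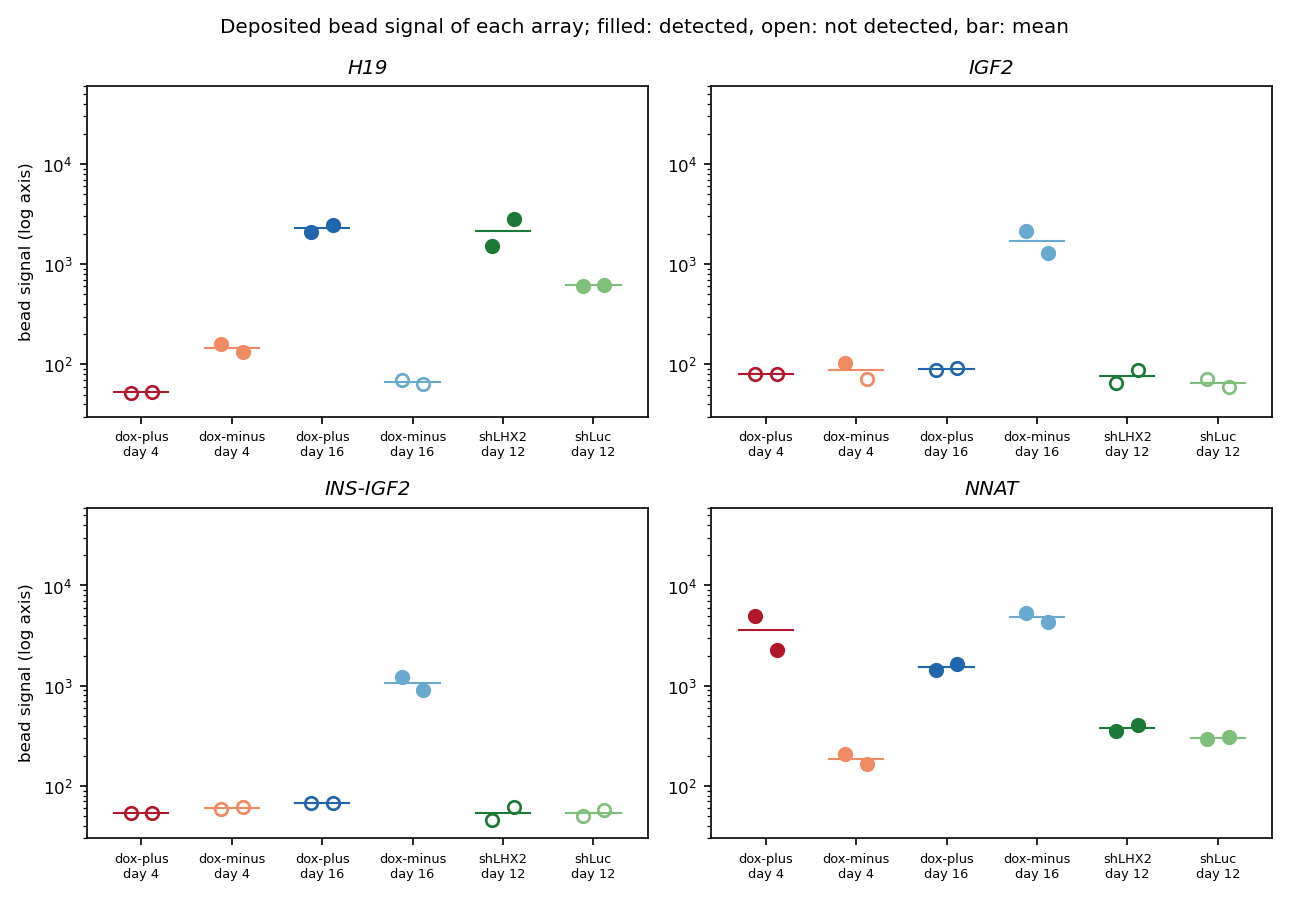
Deposited bead signal (log axis) of H19, IGF2, INS-IGF2 and NNAT on each of the 12 arrays by group. Filled points are detected at a detection p under 0.01, open points are not, and bars are group means. H19 is at 2076.7 and 2478.6 in dox-plus day 16 cells, where IGF2 is not detected, and the reverse holds in dox-minus day 16 cells.

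IGF2, a secreted growth factor of the fetus, was low where H19 was high at day 16, and was detected on 1 array outside that day. Its signals were 87.4 and 91.6 in dox-plus day 16 cells, neither detected, against 2147.2 and 1281.3 in dox-minus day 16 cells. The log2 difference was −5.37 ± 0.31 SE, at least 36.1-fold lower in dox-plus cells on the corrected scale. It was −4.26 without background correction and −4.21 in the series value table. Of the 8 arrays of the other groups, 1 dox-minus day 4 array detected it, at 104.3. IGF2 passed the filter only through dox-minus day 16 cells, so a difference there was built in.

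At day 4 the IGF2 signals were 79.6 and 80.1 in dox-plus cells, against 104.3 and 72.1 in dox-minus cells, and the groups overlapped (adjusted p = 0.558). In shLHX2 arrays they were 65.8 and 87.0, against 72.3 and 59.1 in shLuc arrays, all undetected (adjusted p = 0.759). So H19 was higher in shLHX2 cells with IGF2 below detection in both hairpin groups, and a lower IGF2 level could not have been seen there.

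INS-IGF2 is a read-through transcript that starts at INS and runs into IGF2. Its signals were 68.0 and 67.6 in dox-plus day 16 cells, against 1219.0 and 905.5 in dox-minus day 16 cells. On the log2 scale the difference was −5.29 ± 0.19 SE, at least 22.4-fold lower in dox-plus cells on the corrected scale. It was −3.99 without background correction and −3.95 in the series value table. It was detected in dox-minus day 16 cells and in no other group, where signals lay between 46.2 and 68.0, so it too passed the filter through that group alone.

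The probes did not all show this. Of 3 IGF2 probes, the one at base 1000 of its transcript had signals of 77.5 and 87.6 in dox-plus day 16 cells, against 1366.6 and 718.4 in dox-minus day 16 cells, at least 21-fold lower. The probe at base 602 was detected on 0 of 12 arrays and stayed between 46.3 and 58.8. Likewise the INS-IGF2 probe at base 599 was never detected, whereas the one at base 5084 gave the values above. The probes lie in different parts of the transcripts, and their sequences were not analysed here, so whether the INS-IGF2 probe also binds IGF2 transcripts was not tested.

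Cell type markers also differed between dox-plus and dox-minus cells at day 16. All 14 mesenchyme markers were detected in dox-minus day 16 cells, and their summed normalized level was 9875 and 10880 in dox-plus day 16 cells, against 40700 and 41600 in dox-minus day 16 cells. In the other 4 groups that sum lay between 6041 and 12500. At day 16, 12 of the 14 were called lower in dox-plus cells and 0 higher, with a median log2 difference of −1.97 against 0.016 over all genes. Over all genes 6.08% were called higher and 7.64% lower. Mesendoderm markers summed to 2001 and 2412 in dox-plus day 16 cells, against 16430 and 15120 in dox-minus day 16 cells, although TBXT, MIXL1, SOX17 and TBX6 were below detection in the dox-minus cells too. HAND1 made up most of these sums, at signals of 1713.7 and 1872.2 in dox-plus day 16 cells, against 13814.8 and 12941.6 in dox-minus day 16 cells. The summed neural progenitor markers, which include LHX2 itself, ran the other way, at 47300 and 47880 in dox-plus day 16 cells. In dox-minus day 16 cells they summed to 19350 and 17290. Of 11 tested, 7 were called higher in dox-plus cells and 0 lower. NES had signals of 1481.8 and 1755.8 in dox-plus day 16 cells, against 2735.8 and 2152.1 in dox-minus day 16 cells. SOX3 overlapped between these groups, and SOX1 was below detection in both. Hepatic markers, of which 4 of 10 passed the filter, summed to 186.3 and 154.2 in dox-plus day 16 cells, against 785.4 and 758.1 in dox-minus day 16 cells. APOA1 made up most of the dox-minus sums, at signals of 704.9 and 594.9, against 81.2 and 92.9 in dox-plus day 16 cells. ALB overlapped, at 158.9 and 106.9 in dox-plus day 16 cells, against 104.9 and 122.6 in dox-minus day 16 cells. Muscle markers summed to 18940 and 19420 in dox-plus day 16 cells, against 45480 and 45310 in dox-minus day 16 cells. APOB, FGB, FGG and HNF4A among the hepatic markers, and DES, MYOD1 and MYOG among the muscle markers, were below detection in both groups. Trophoblast markers summed to 3156 and 3650 in dox-plus day 16 cells, against 7796 and 5484 in dox-minus day 16 cells. TFAP2A made up most of these sums, at signals of 2024.3 and 2303.5 in dox-plus day 16 cells, against 5949.2 and 3750.1 in dox-minus day 16 cells. The part of these cell types in the H19 and IGF2 differences was not tested.

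**Figure D2:**
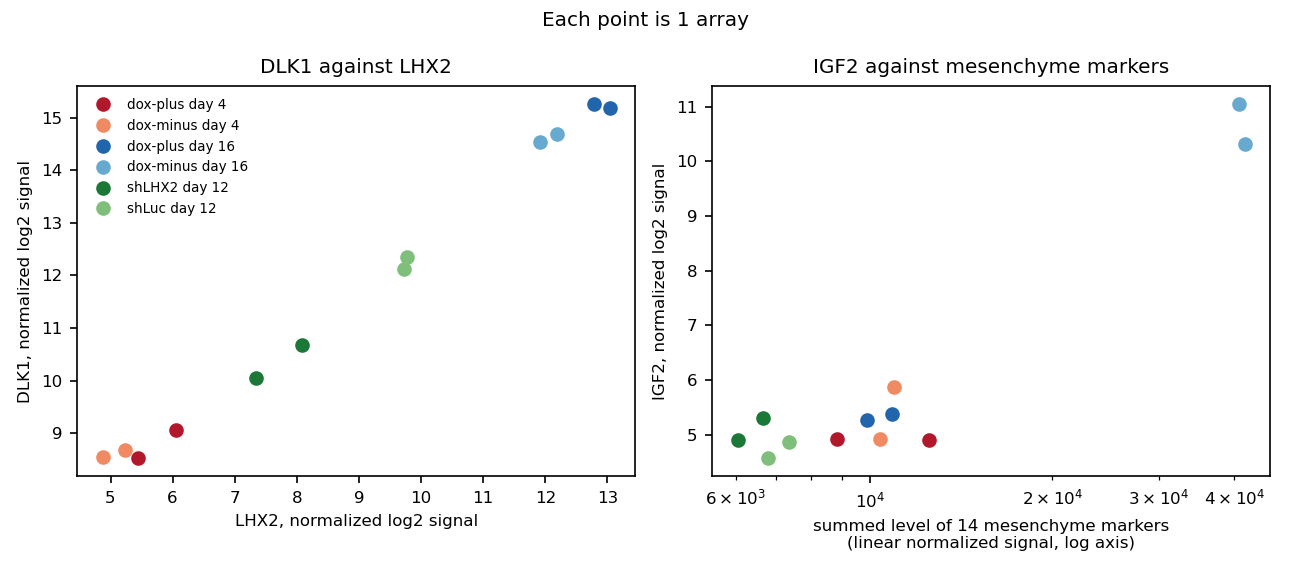
Left, normalized log2 signal of DLK1 against that of LHX2. Right, normalized log2 signal of IGF2 against the summed level of 14 mesenchyme markers (log axis). Each point is 1 of 12 arrays, coloured by group. IGF2 stands apart on the 2 dox-minus day 16 arrays, where the marker sum is 40700 and 41600.

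The genes with patterns closest to IGF2 and to H19 are given as a description only. Over the 12 arrays, which fall into 6 groups, the normalized log2 level of IGF2 correlated most with TECRL (Pearson r = 0.992), HOXB7 (0.989), CPED1 (0.988), FOXF1 (0.987) and SRPX2 (0.986), all high in dox-minus day 16 cells alone. HOXB7 and FOXF1 encode transcription factors, and FOXF1 marks lateral mesoderm. H19 correlated most with SEPTIN3 (r = 0.983), DCX (0.95), VIPR2 (0.947), CFAP300 (0.935) and ZNF22 (0.934). SEPTIN3 and DCX are best known from neurons, and both spanned a far narrower range than H19. SEPTIN3 averaged 11.12 in dox-plus day 16 cells, against 10.28 in dox-minus day 16 cells, on the normalized log2 scale. Neuron markers, a list that includes DCX, did not all follow H19. Of 8 tested at day 16, limma called 3 higher and 1 lower in dox-plus cells. TUBB3 had signals of 1205.4 and 1442.5 in dox-plus day 16 cells, against 3568.8 and 2207.9 in dox-minus day 16 cells. Between shLHX2 and shLuc cells 0 of the 8 were called, with a median log2 difference of −0.494. H19 and IGF2 themselves had r = −0.486. That value includes the day 16 arrays that led to their choice, so it is a description only.

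CDKN1C, a maternally expressed CDK inhibitor, was detected on all 12 arrays and gave no call with dox at day 4 or with the hairpin. Its signals were 239.3 and 382.7 in dox-plus cells, against 280.8 and 348.2 in dox-minus cells, at day 4 (adjusted p = 0.631). At day 16 they were 453.4 and 570.6 in dox-plus cells, against 493.8 and 867.7 in dox-minus cells, and the groups overlapped. In shLHX2 cells they were 522.8 and 733.7, against 379.8 and 379.9 in shLuc cells. These groups did not overlap, but the log2 difference of 1.05 ± 0.31 SE did not pass (adjusted p = 0.217, and 0.0355 with array weights). Day 16 was above day 4 in dox-minus cells (log2 difference 1.06 ± 0.31 SE, adjusted p = 0.0342) and in dox-plus cells (1.06 ± 0.31 SE, adjusted p = 0.0205). The call in dox-minus cells was lost without dox-minus day 4 replicate 1 (adjusted p = 0.103), day 4 replicate 2 (0.17) or day 16 replicate 1 (0.221), and with no filter on low values (0.0834). The call in dox-plus cells was lost without dox-plus day 4 replicate 2 (adjusted p = 0.121) or day 16 replicate 2 (0.148), with no filter (0.0527) and in the series value table without normalization (0.0617).

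DLK1, which restrains differentiation in several tissues, was lower in shLHX2 cells and had the largest log2 difference between the days of the tested members. It was detected on all 12 arrays. Its signals in shLHX2 cells were 986.7 and 1528.5, against 6029.3 and 4533.6 in shLuc cells. The groups were apart by more than the spread within either. DLK1 was 3.68-fold lower (log2 difference −1.88 ± 0.24 SE, limma adjusted p = 0.00542). The other DLK1 probe, at base 856, had signals of 220.6 and 324.6 in shLHX2 cells, against 870.2 and 1086.3 in shLuc cells, 3.49-fold lower. The call was lost without shLHX2 replicate 1 (adjusted p = 0.0572), shLuc replicate 1 (adjusted p = 0.106) or shLuc replicate 2 (adjusted p = 0.068).

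With dox, the DLK1 signals at day 4 were 431.8 and 725.7 in dox-plus cells, against 362.7 and 442.9 in dox-minus cells, and overlapped (adjusted p = 0.815). At day 16 they were 37212.8 and 37313.8 in dox-plus cells, against 24877.0 and 22754.4 in dox-minus cells, a log2 difference of 0.61 ± 0.24 SE. The probe at base 856 gave a larger gap at day 16, 2.61-fold, and it lay far lower on the scale, between 4560.1 and 15624.5. DLK1 at day 16 was 64.2-fold its day 4 level in dox-minus cells (adjusted p = 1.92e-08) and 86.4-fold in dox-plus cells (log2 difference 6.43 ± 0.24 SE, adjusted p = 2.37e-08). The probe at base 856 gave 81.3-fold in dox-minus cells and 153-fold in dox-plus cells. The 5 genes closest to DLK1 over the 12 arrays were PAX6 (r = 0.998), LHX2 itself (0.996), RAX (0.994), LGI1 (0.99) and CDH6 (0.989). PAX6, LHX2 and RAX encode transcription factors of the eye field and forebrain. DLK1 was lowest in the day 4 groups, whose ranges overlapped, and LHX2 was lowest there too. Both were intermediate in the hairpin groups and highest at day 16.

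MEG3, the non-coding partner of DLK1, was undetected at day 4, low in the hairpin groups and high at day 16. Its signals at day 16 were 1004.1 and 1098.9 in dox-plus cells, against 325.1 and 259.5 in dox-minus cells. This was 4.3-fold, a log2 difference of 2.11 ± 0.22 SE. At day 4 they were 95.8 and 90.9 in dox-plus cells, against 79.2 and 84.8 in dox-minus cells, none of them detected. Day 16 was at least 4.71-fold above day 4 in dox-minus cells (adjusted p = 3.78e-06) and at least 20.8-fold in dox-plus cells (adjusted p = 4.88e-08), on the corrected scale. Over the alternative settings the log2 differences of MEG3 went down to 1.625 in dox-minus cells and 3.485 in dox-plus cells, with every setting called. In shLHX2 cells the signals were 95.7 and 116.3, against 141.6 and 147.4 in shLuc cells. All 4 were detected and the groups did not overlap, but the difference of −0.49 ± 0.22 SE did not pass (adjusted p = 0.466). The probe at base 1169 was detected in dox-plus day 16 cells alone, at 161.5 and 162.8, against 77.3 and 83.3 in dox-minus day 16 cells. MEG3 and DLK1 had r = 0.933 over the 12 arrays, which share the day 4 to day 16 difference.

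**Figure D3:**
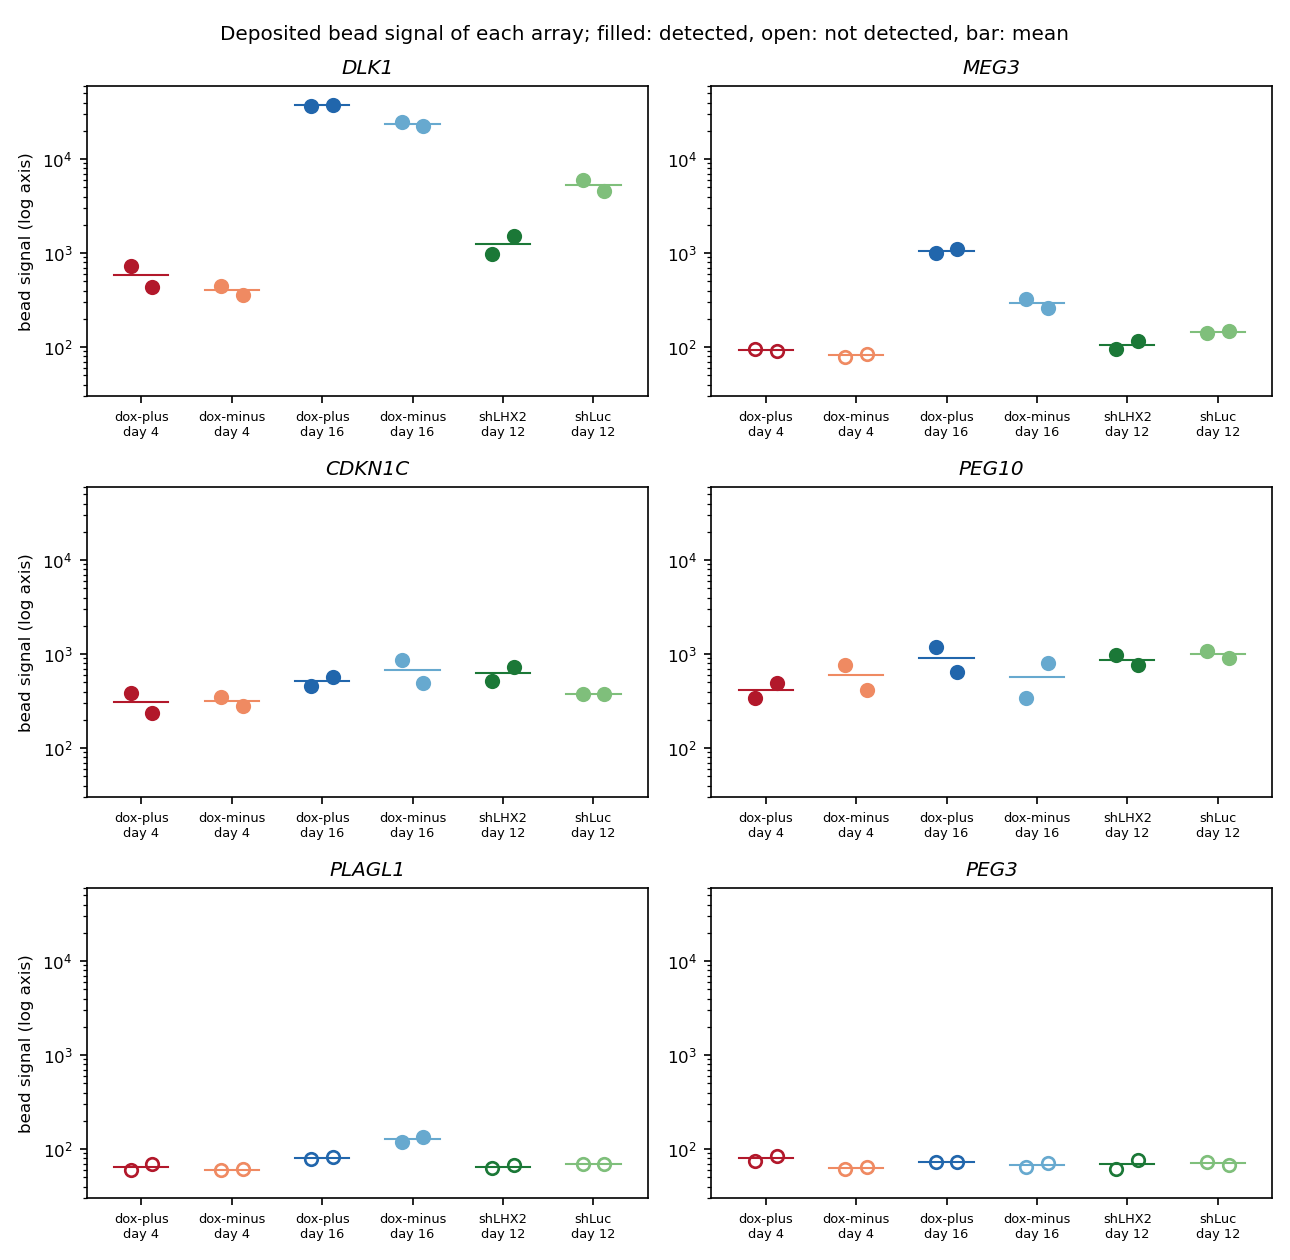
Deposited bead signal (log axis) of DLK1, MEG3, CDKN1C, PEG10, PLAGL1 and PEG3 on each of the 12 arrays by group. Filled points are detected, open points are not, and bars are group means. DLK1 lies at 986.7 and 1528.5 in shLHX2 cells, below 6029.3 and 4533.6 in shLuc cells, and PEG3 is not detected on any array.

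NNAT, a paternally expressed small membrane protein of the developing nervous system, stood out at day 4. Its signals were 4979.6 and 2253.7 in dox-plus cells, against 206.2 and 165.4 in dox-minus cells. NNAT was 18.6-fold higher in dox-plus cells (log2 difference 4.22 ± 0.27 SE). The dox-plus arrays were far apart from each other, but the lower one was well above both dox-minus arrays. At day 16 the order turned, with 1422.1 and 1637.2 in dox-plus cells, against 5360.8 and 4353.4 in dox-minus cells (−1.72 ± 0.27 SE, 3.3-fold lower). The probe at base 224, detected on 6 arrays, ran the same way. Its signals at day 4 were 475.8 and 222.0 in dox-plus cells, against 41.7 and 47.0 in dox-minus cells, at least 4.64-fold higher.

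In dox-minus cells NNAT was 33.5-fold higher at day 16 than at day 4 (log2 difference 5.07 ± 0.27 SE, adjusted p = 1.26e-07). In dox-plus cells it was lower at day 16 (−0.87 ± 0.27 SE, adjusted p = 0.0239), a call lost without dox-plus day 4 replicate 1 (adjusted p = 0.225) and without dox-plus day 16 replicate 1 (adjusted p = 0.178), and also with only the 2 groups compared in the fit (adjusted p = 0.0607). Both hairpin groups were low. Signals were 352.0 and 404.1 in shLHX2 cells, against 291.4 and 309.7 in shLuc cells (adjusted p = 0.407). The closest patterns over the 12 arrays were those of ZNF585A (r = 0.978), LOC100130886 (0.947), SPTY2D1 (0.938), ATG4A (0.928) and PRMT2 (0.921), each within a much narrower range.

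**Figure D4:**
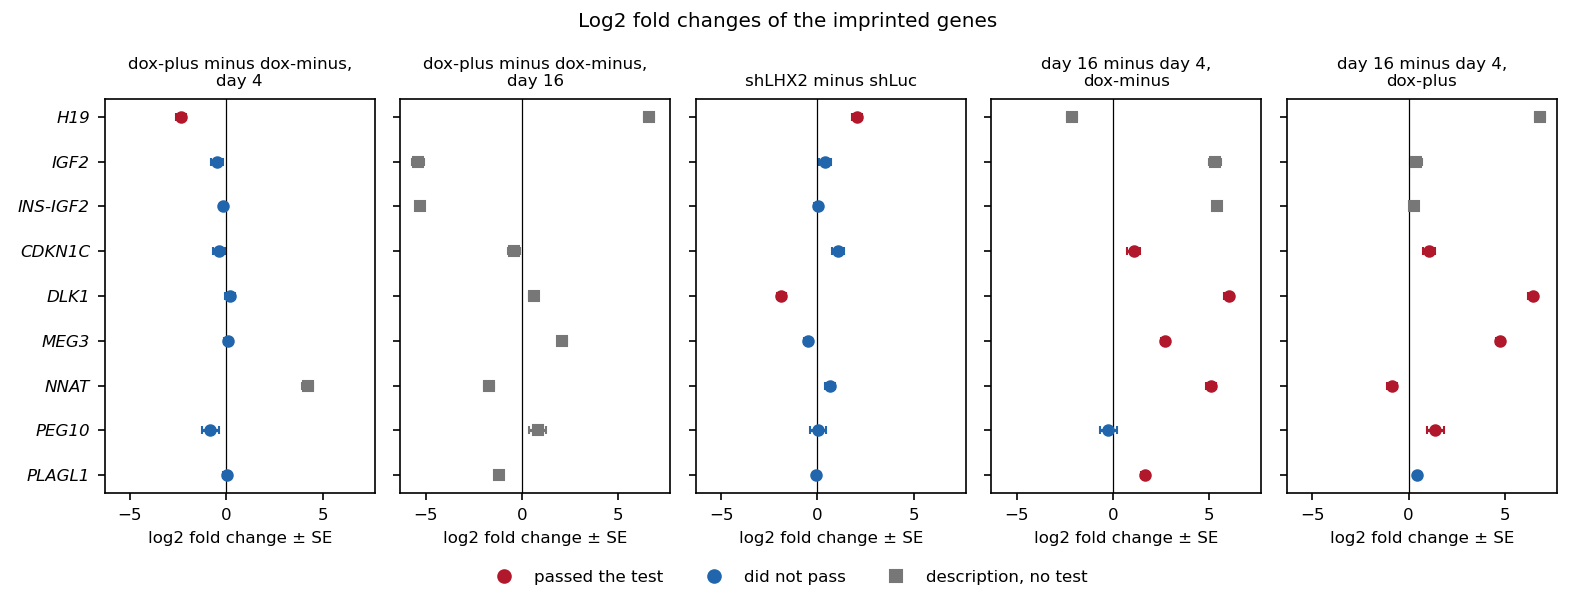
Log2 fold changes with their standard errors (bars) for the 9 members that passed the filter, in 5 comparisons of 2 arrays a group. Red points passed the test at an adjusted p under 0.05, blue points did not, and grey squares are descriptions without a test. H19 is at −2.35 at day 4 and at 2.07 in the hairpin comparison, where DLK1 is at −1.88.

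PEG10, a retrotransposon-derived gene needed in the placenta, was detected on all 12 arrays by its main probe and by the one at base 5808. These did not give the same differences, and the probe at base 1524 was detected on 0 of 12 arrays. The main probe had signals of 757.8 and 989.1 in shLHX2 cells, against 920.7 and 1087.1 in shLuc cells (adjusted p = 0.989). The probe at base 5808 had 179.9 and 234.2 in shLHX2 cells, against 334.9 and 357.8 in shLuc cells, 1.58-fold lower. Between the days in dox-plus cells the probe at base 5808 gave a log2 difference of 0.75, against 1.40 for the main probe. At day 4 the main probe ran at 345.1 and 487.5 in dox-plus cells, against 418.0 and 768.4 in dox-minus cells (adjusted p = 0.435). At day 16 it had 1178.0 and 651.5 in dox-plus cells, against 342.4 and 798.6 in dox-minus cells, and the groups overlapped (log2 difference 0.82 ± 0.44 SE, no test). Day 16 was above day 4 in dox-plus cells (1.40 ± 0.44 SE, adjusted p = 0.0257), a call lost without dox-plus day 4 replicate 1 (adjusted p = 0.179) or day 16 replicate 1 (0.193), and with no filter on low values (0.0782).

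PLAGL1, a zinc finger transcription factor that restrains growth, was seen in 1 group. Its signals were 79.1 and 82.5 in dox-plus day 16 cells, undetected, against 120.6 and 136.0 in dox-minus day 16 cells, at least 1.67-fold lower in dox-plus cells on the corrected scale. The PLAGL1 log2 difference was −1.19 there, −0.64 without background correction and −0.35 with no filter on low values. It was called higher at day 16 than at day 4 in dox-minus cells (at least 1.49-fold, adjusted p = 4.77e-05), but it passed the filter through that group alone, and with no filter, where another probe stands for it, the adjusted p was 0.0794. PEG3, a zinc finger protein, had 1 probe, undetected on all 12 arrays with signals from 61.5 to 84.7. At day 16 they were 72.9 and 73.2 in dox-plus cells, against 64.0 and 71.8 in dox-minus cells.

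Between the days 5 of 6 tested members were called in dox-minus cells, all higher at day 16, where 18% of all genes were called (9.7% higher and 8.35% lower). The 5 include PLAGL1, whose call was built in by the filter, so nothing is read from that count. In dox-plus cells 5 of 6 were called, 4 higher and NNAT lower, where 36.6% of all genes were called (17.8% higher and 18.9% lower). With no filter on low values 3 members were called in each. At day 16 between dox-plus and dox-minus cells, 13.7% of all genes were called, and nothing is read from the members there.

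**Figure D5:**
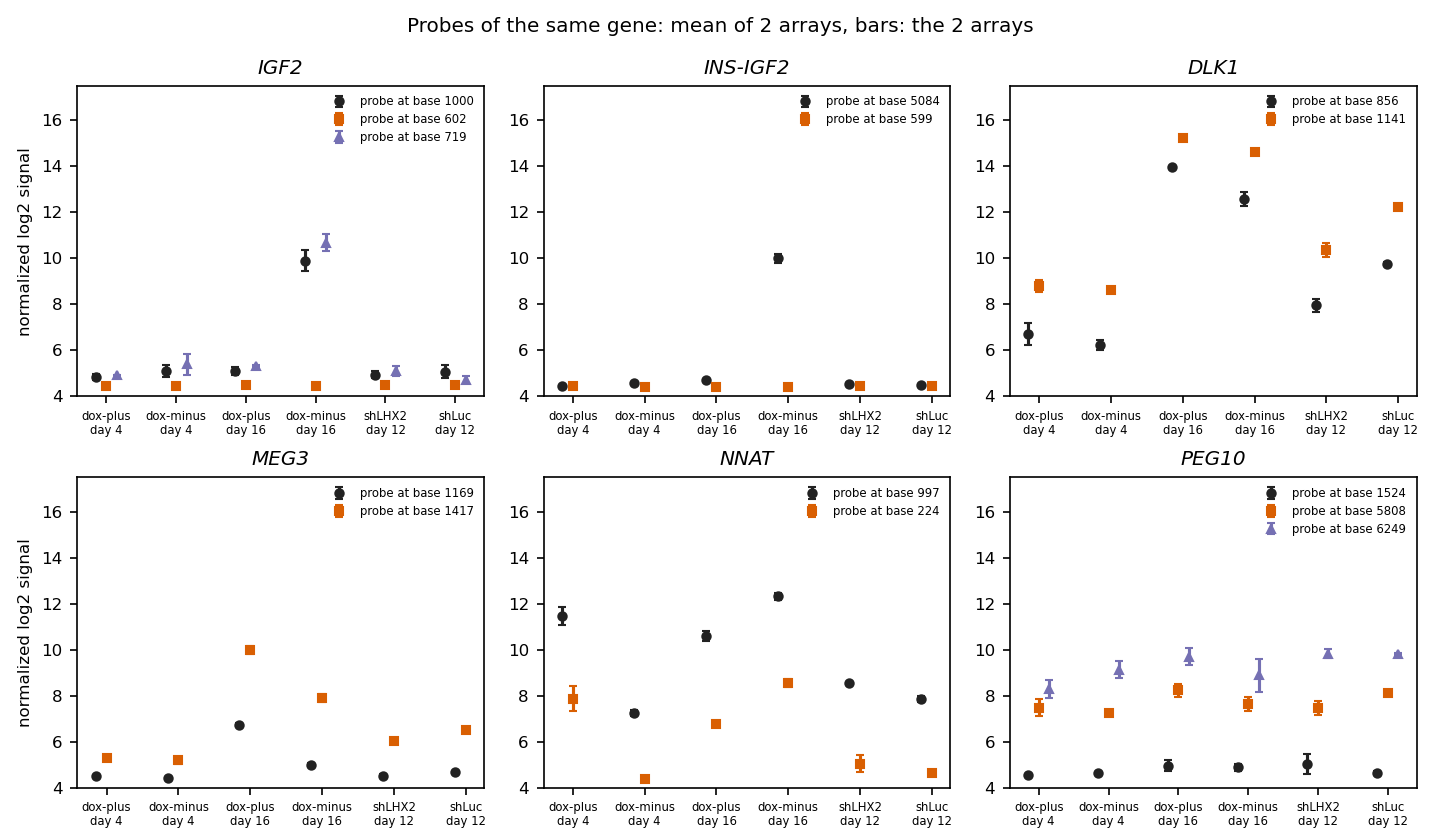
Normalized log2 signal of every probe of IGF2, INS-IGF2, DLK1, MEG3, NNAT and PEG10, by group. Points are means of 2 arrays and bars reach the 2 arrays, and probes are named by their start in the reference transcript. The IGF2 probe at base 602 and the INS-IGF2 probe at base 599 stay at the floor while other probes of these genes rise in dox-minus day 16 cells.

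Of 66 other genes reported as imprinted in some human tissue, 64 were on the array and 42 passed the filter. At day 4 1 was called, NLRP2, a gene of the oocyte subcortical complex that is linked to imprint keeping. NLRP2 had signals of 177.3 and 249.6 in dox-plus cells, against 1233.2 and 1317.7 in dox-minus cells (−3.19 ± 0.27 SE, 9.14-fold lower, adjusted p = 0.000152). At day 16 it was the other way round, with 854.6 and 791.9 in dox-plus cells, against 253.2 and 357.4 in dox-minus cells (3.14-fold higher, adjusted p = 0.00185). NLRP2, like H19, was lower in dox-plus cells at day 4 and higher in them at day 16, while in the hairpin arrays it had 1335.6 and 1426.1 in shLHX2 cells, against 1636.8 and 1473.9 in shLuc cells. Whether its difference changed between the days was not tested.

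At day 16, 8 of the 42 were called, 4 higher and 4 lower in dox-plus cells, with a median log2 difference of 0.118 against 0.016 over all genes. Each direction held 9.52% of the 42, beside 6.08% higher and 7.64% lower over all genes, so the share called was near the background. NLRP2, IPW, DIO3 and PPP1R9A were higher. IPW, a non-coding RNA of the Prader-Willi region, had 773.3 and 447.5 in dox-plus cells, against 243.7 and 277.5 in dox-minus cells (2.58-fold, adjusted p = 0.00728). DIO3, the thyroid hormone deiodinase that lies in the same imprinted region as DLK1 and MEG3, had 229.1 and 272.8 in dox-plus cells, against 137.6 and 124.3 in dox-minus cells (2.49-fold, adjusted p = 0.00516). CPA4, PHLDA2, TFPI2 and SLC67A1 (formerly SLC22A18) were lower. CPA4, a carboxypeptidase, had 115.5 and 98.3 in dox-plus cells, against 272.8 and 387.0 in dox-minus cells (5.04-fold lower, adjusted p = 4.03e-05). PHLDA2, a growth-restraining gene of the placenta from the region of CDKN1C, was undetected in dox-plus cells, at 77.4 and 80.5, against 152.9 and 125.7 in dox-minus cells (at least 1.88-fold lower, adjusted p = 0.00198).

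In the hairpin comparison limma called 0 of these 42 genes, with 6 at an unadjusted p under 0.05. Between the days 9 were called in dox-minus cells, 6 higher and 3 lower at day 16, or 14.3% and 7.14% of the 42, beside 9.7% and 8.35% of all genes. In dox-plus cells 19 were called, 14 higher and 5 lower, or 33.3% and 11.9% of the 42, beside 17.8% and 18.9% of all genes. CPA4 rose most in dox-minus cells, to 272.8 and 387.0 at day 16, against 73.5 and 70.5 at day 4, at least 5.39-fold (adjusted p = 1.4e-06). IGF2-AS, transcribed opposite to IGF2, was detected at 109.2 and 106.5 in dox-minus cells at day 16, against an undetected 75.1 and 73.0 at day 4 (at least 1.09-fold, adjusted p = 0.0415). IGF2-AS passed the filter through dox-minus day 16 cells alone, so a difference there was built in. At day 16 it had 81.6 and 92.3 in dox-plus cells, both undetected (adjusted p = 0.191 against dox-minus cells). Its signal was close to the detection limit throughout, and its change was far smaller than that of IGF2.

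Of 13 genes of IGF and insulin signalling, the pathway that IGF2 acts through, 10 were tested. At day 4 limma called 0, with 1 at an unadjusted p under 0.05, and in the hairpin comparison also 0, with 1 at an unadjusted p under 0.05. At day 16 FOXO1, a transcription factor held back by this pathway, was lower in dox-plus cells (−0.63 ± 0.18 SE, adjusted p = 0.0401). It was the 1 gene of the 10 called there, beside 13.7% of all genes. The receptors did not pass at day 16. IGF2R, which clears IGF2, averaged 11.67 in dox-plus cells, against 12.05 in dox-minus cells, on the normalized log2 scale (adjusted p = 0.302). IGF1R averaged 5.91 in dox-plus cells, against 6.39 in dox-minus cells (adjusted p = 0.275). Between the days 4 of the 10 were called in each arm, beside 18% of all genes in dox-minus cells and 36.6% in dox-plus cells, led by FOXO1, lower at day 16, and PIK3R1, a regulatory subunit of PI3 kinase, higher at day 16.

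Of 15 genes that set or keep imprints, 10 were tested. NLRP2 was the 1 called at each day between dox-plus and dox-minus cells, and limma called 0 in the hairpin comparison, with 0 at an unadjusted p under 0.05. CTCF, which binds the H19 control region, averaged 9.14 in dox-plus cells, against 9.13 in dox-minus cells, at day 16 on the normalized log2 scale (log2 difference 0.01 ± 0.22 SE, adjusted p = 0.976). TRIM28 (adjusted p = 0.628), DNMT1 (0.955), UHRF1 (0.885) and ZFP57 (0.704) did not pass at day 16 either. Between the days NLRP2 was lower at day 16 in dox-minus cells (5.21-fold, adjusted p = 8e-05) and higher at day 16 in dox-plus cells (5.51-fold, adjusted p = 3.55e-05). NLRP7 was lower at day 16 in both, at 2.1-fold in dox-minus cells (adjusted p = 0.0418) and at least 1.64-fold in dox-plus cells (adjusted p = 0.012). SETDB1 was higher at day 16 in dox-plus cells (1.89-fold, adjusted p = 0.0343). In all, limma called 2 of the 10 in dox-minus cells, beside 18% of all genes. In dox-plus cells 3 of the 10 were called, beside 36.6% of all genes.

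Markers also differed between the hairpin groups. Neural progenitor markers, which include LHX2, summed to 10090 and 9617 in shLHX2 cells, against 14570 and 12560 in shLuc cells. Of 11 tested, 2 were called lower, with LHX2, the target of the hairpin, among them, beside 0.294% of all genes called lower. Mesendoderm markers summed to 3265 and 5518 in shLHX2 cells, against 2649 and 2671 in shLuc cells, with 3 of 11 called lower and 0 higher, and GATA4, GATA6, SOX17 and FOXF1 were among those below detection in both. HAND1 made up most of these sums, at signals of 2664.3 and 5025.5 in shLHX2 cells, against 2336.7 and 2147.7 in shLuc cells. Trophoblast markers summed to 4066 and 6446 in shLHX2 cells, against 3316 and 3253 in shLuc cells. Of 7 tested, limma called 0, with 5 at an unadjusted p under 0.05. The median log2 difference of the 7 was 0.851, against 0.005 over all genes. Of the trophoblast markers, CGB, PSG5, CYP19A1 and HSD3B1 were below detection in both hairpin groups. At day 4 mesenchyme markers summed to 12500 and 8835 in dox-plus cells, against 10960 and 10400 in dox-minus cells, and pluripotency markers, all 8 detected, to 31940 and 39510 in dox-plus cells, against 39380 and 43690 in dox-minus cells. The part of these cell types in the H19, DLK1 and NNAT differences was not tested.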

How the data were processed

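Per the file headers, the deposited per-array files give each probe's mean bead intensity, the bead count and bead error behind it, and a detection p-value. Nothing used here states a background subtraction by the authors. Per the labels' protocols, RNA was labelled as biotinylated cRNA. Probes were matched by Entrez identifier to current symbols (35670 of 47227; 3270 had no identifier and 8287 kept the file's name). Intensities were corrected with neqc (offset 16) and quantile normalized with limma 3.58.1 in R 4.3.3. Of 21526 probes kept, 807 had no gene, and each of 15650 genes was its kept probe with the highest mean. One limma fit held all 12 arrays (6 residual and 5.93 prior degrees of freedom), with Benjamini-Hochberg adjustment over all genes. The step was tested on simulated data.

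The members and lists were chosen with earlier results of these data known. The genes named are the members, LHX2, the called genes with the largest changes in each list (up to 5 in each direction for other imprinted genes, 3 for the rest), and the 5 genes most correlated with H19, IGF2, NNAT and DLK1. CTCF, TRIM28, DNMT1, UHRF1, ZFP57, IGF1R, IGF2R and the uncalled values of listed genes were added after their values were seen. Replicate numbers come from the titles, which do not say whether arrays of the same number share a culture. Same-numbered deviations correlated from −0.579 to 0.334, and the main fit used no block. Whether a shared culture or batch lay behind these correlations was not tested.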

Additional observations from a re-analysis of the deposited data

Results flagged for a closer look

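H19 stood out because its dox-plus minus dox-minus difference had opposite directions on the 2 days, −2.35 at day 4 and 6.58 (6.577) at day 16 on the log2 scale, with every array of the pair on that side each time. NNAT did the same the other way round, at 4.22 (4.215) at day 4 and −1.72 (−1.721) at day 16. The difference between the days was not tested for either gene, because the day 16 contrast, and for NNAT the day 4 contrast, led to their choice.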

How the results depend on the processing

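H19 at day 4 was called under all 14 alternative settings run (log2 difference −2.48 to −1.37, adjusted p of at most 0.0142) and with each array left out (adjusted p 0.00799 to 0.0285). H19 (1.74 to 2.07) and DLK1 (−2.09 to −1.84) were called between shLHX2 and shLuc cells under the same 14 settings, but not with every array left out. The untested day 16 differences between dox-plus and dox-minus cells kept their direction under these settings and were smaller with no background correction, an offset of 50 or the series value table. They ran from 5.085 to 6.577 for H19, from −5.369 to −4.212 for IGF2, from −5.293 to −3.954 for INS-IGF2 and from −1.2 to −0.352 for PLAGL1, whose smallest value came with no filter. DLK1 there was at 0.999 as the mean of its kept probes. Genes called moved most. At day 4 there were 302, and 61 with only the 2 groups compared, 180 with array weights, 567 at an adjusted p under 0.1 and 631 from the series value table without normalization. At day 16 there were 2148, and 1067 with only the 2 groups compared and 1406 from the series value table. Between shLHX2 and shLuc cells there were 85, and 164 at an adjusted p under 0.1 and 418 with array weights. With no filter on low values 3 members were called between the days in dox-minus cells and 3 in dox-plus cells.

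With 1 array left out, the lone array of its group was assumed to vary like the other groups. Genes called then ran from 28 to 142 at day 4, from 908 to 3076 at day 16, from 10 to 25 between shLHX2 and shLuc cells, from 1599 to 2679 between the days in dox-minus cells and from 3258 to 5568 in dox-plus cells. Members called ran from 0 to 2 between shLHX2 and shLuc cells and from 3 to 4 between the days in dox-plus cells.

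Some values that were not called changed sign. At day 4 MEG3 was at −0.099 and PLAGL1 at −0.039 with cyclic loess, and PLAGL1 at −0.051 with median scaling and −0.205 with no filter. Between shLHX2 and shLuc cells PEG10 was at −0.14 with median scaling, −0.316 as the mean of its kept probes and −0.209 from the series value table, where INS-IGF2 was at −0.011. Between the days in dox-minus cells PEG10 was at 0.069 as the mean of its kept probes. With 1 array left out, day 4 values ran from −0.949 to 1.1e-05 for IGF2, from −0.085 to 0.451 for DLK1, from −0.078 to 0.235 for MEG3 and from −0.067 to 0.083 for PLAGL1. Values between shLHX2 and shLuc cells ran from −0.042 to 0.096 for INS-IGF2 and from −0.181 to 0.246 for PEG10, and PEG10 between the days in dox-minus cells ran from −0.953 to 0.457. The causes were not tested.

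With the replicate number as a block, 215 genes were called at day 4, 2031 at day 16 and 71 between shLHX2 and shLuc cells, and the member counts stayed at 1 and 2. With the day 16 dox-plus numbers exchanged, chosen after seeing the data, the block gave 319, 2365 and 97 genes. Between the days the replicate block gave 2739 genes in dox-minus and 5598 in dox-plus cells. The series value table has the replicate numbers of shLuc exchanged relative to the per-array files.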
